A study of Mus musculus with 59 samples.

Results

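A set of 9 endothelial and angiogenic genes, of 55341 gene symbols in the count tables, was followed across the brown adipose tissue (BAT) of 59 male C57BL/6J mice, aged 8 to 12 weeks. They were taken by name: the ligands Vegfa and Vegfb, their receptors Kdr and Flt1, the endothelial surface genes Pecam1 and Cdh5, the angiopoietin receptor Tek, its ligand Angpt2, and Aplnr, the apelin receptor. All 9 had a row in each of the 3 tables. In the thyroid hormone (TH) experiment, wild-type (WT) mice made hypothyroid with PTU, an inhibitor of TH synthesis, received TH and were sampled after 3, 6, 12 or 24 h, beside PTU-fed controls, with 4 mice in each of the 5 groups. BATKO mice in that experiment received PTU alone (5 mice) or PTU and then TH for 24 h (5 mice), so that every mouse of the experiment, controls included, had received PTU. In the temperature experiment, mice labelled CTRL spent 24 h at 4 °C (3 mice) or 30 °C (4 mice), and BATKO mice did the same (4 and 5 mice). In the diet experiment, chow was given to 4 CTRL and 2 BATKO mice, and a diet rich in fat (HFD) was fed to 4 CTRL and 3 BATKO mice for 3.5 days. The genetic change that the name BATKO stands for, the cells it affects and the promoter that drives it are not given in the sources used here, so no targeted gene was checked. Mice carry the numbers of the labels: B2 to B5 are the WT controls on PTU, B7 to B11 the 3 h, B12 to B17 the 6 h, B19 to B23 the 12 h and B24 to B28 the 24 h mice. Each mouse was 1 library, and the p-values measure the spread between mice.

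Blood vessels of brown fat carry oxygen, fuel and heat, and the tissue is among the most densely vascularized of the body. VEGF-A, made by adipocytes among other cells, binds VEGFR2 (Kdr), the main signalling receptor of endothelial cells, and VEGFR1 (Flt1), which binds it more tightly and also exists as a soluble decoy. VEGF-B binds Flt1, angiopoietins act on TIE2 (Tek), and apelin acts on Aplnr, a receptor of sprouting and venous endothelium. PECAM1 and VE-cadherin (Cdh5) sit at the junctions between endothelial cells and serve as general markers of the lineage. In bulk tissue, fewer endothelial cells and less RNA per endothelial cell cannot be told apart.

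Total counts per mouse ran from 7805938 to 14615534 in the WT and 13593987 to 18073627 in the BATKO mice of the TH experiment, from 8008348 to 12887313 in the temperature experiment and from 7612059 to 11533900 in the diet experiment, and mitochondrial genes took 39.2% to 55.7% of them. The brown fat markers Ucp1, Cidea and Cox7a1 were among 8 brown adipocyte genes with a summed level of 2123 to 20780 CPM per mouse. Skeletal muscle transcripts varied widely between mice, from 0.639 to 7710 CPM in sum.

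Levels of the members were compared with one another per length, as CPM (read counts scaled to a common library size with TMM factors) divided by the kilobases of merged exons. Vegfa, Vegfb and Cdh5 were the 3 highest in each experiment. In the TH experiment their order differed between the library sets. In WT mice on PTU, Cdh5 was at 33.6, Vegfa at 28.5 and Vegfb at 27.7 CPM per kb, and 24 h after TH Vegfa led with 59.1, ahead of Vegfb with 40.2. In BATKO mice on PTU, Vegfb was at 51.7, Cdh5 at 47.4 and Vegfa at 35.5 CPM per kb. In each of the 7 groups Pecam1 followed, with means of 11.8 to 18.6 CPM per kb, and then Kdr, with 6.45 to 10.8. The order of Tek, Flt1 and Aplnr changed between groups. In WT mice on PTU, Tek was at 4.00, Flt1 at 2.80 and Aplnr at 1.92 CPM per kb, and 24 h after TH Flt1 was at 4.72, Aplnr at 4.14 and Tek at 4.05. Angpt2, which is made by activated endothelium, was the lowest in each group, with means of 0.145 to 0.497 CPM per kb. No Angpt2 value was above 3.85 CPM in any of the 59 mice, and the gene passed the filter on low counts (a mean normalized count above 10) in all fits except the one of the 20 WT mice. Angpt2 lies wholly inside Mcph1 on the opposite strand (chromosome 8, 18690263 to 18741562, GRCm38), and Cdh5 overlaps the antisense gene Gm29682 by 4249 bases. The strand setting of the counting is not given, so reads from these partners cannot be told apart. At 4 °C and 30 °C Vegfb had the highest mean, with 59.9 to 165 CPM per kb over 16 mice, ahead of Vegfa with a mean of 61.4 (33.7 to 85.1). The diet experiment had Vegfa at 58.1, Vegfb at 56.3 and Cdh5 at 44.7 CPM per kb over 13 mice.

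Regulatory sequence was read for the members and their partners, since TH receptors (TR) bind pairs of the half-site AGGTCA and the data bear on the response of these genes to TH. The windows below are RefSeq promoters (GRCm38.p6), with 250 bases before and 50 bases after the start of the gene, printed in the direction of transcription, with AGGTCA on either strand in capitals. A window was found for 5 of the 9 members (Vegfa, Vegfb, Kdr, Flt1 and Tek). Vegfb, the Vegfa start farthest upstream and Apln, which encodes the ligand of Aplnr, are shown because these were ligands that rose.
Vegfb (chr19:6987602-6987901, minus strand): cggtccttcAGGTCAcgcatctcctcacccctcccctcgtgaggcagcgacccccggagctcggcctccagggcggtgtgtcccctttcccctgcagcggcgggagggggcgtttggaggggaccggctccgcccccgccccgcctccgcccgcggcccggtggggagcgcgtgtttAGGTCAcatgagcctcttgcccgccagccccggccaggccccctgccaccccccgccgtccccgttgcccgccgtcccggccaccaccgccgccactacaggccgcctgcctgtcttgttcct
Vegfa (chr17:46032328-46032627, minus strand): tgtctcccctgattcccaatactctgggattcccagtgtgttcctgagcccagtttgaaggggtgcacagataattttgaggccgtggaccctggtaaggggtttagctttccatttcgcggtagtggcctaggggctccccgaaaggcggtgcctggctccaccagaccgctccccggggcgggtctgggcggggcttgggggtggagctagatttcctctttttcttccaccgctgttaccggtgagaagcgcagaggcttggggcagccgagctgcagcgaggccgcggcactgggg
Apln (chrX:48034804-48035103, minus strand): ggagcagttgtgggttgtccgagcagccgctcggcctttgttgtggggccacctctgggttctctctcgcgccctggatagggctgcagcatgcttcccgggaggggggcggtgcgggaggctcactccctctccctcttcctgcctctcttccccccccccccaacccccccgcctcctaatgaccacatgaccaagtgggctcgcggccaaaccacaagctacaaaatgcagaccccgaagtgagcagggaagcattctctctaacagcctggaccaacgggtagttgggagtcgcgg
The Vegfb window held 2 half-sites, and those of Vegfa, Kdr, Flt1 and Tek held 0. Of the partners, Nrp1 held 1, and Apln, Tie1, Nrp2, Flt4, Pgf, Vegfc and Vegfd held 0. The half-site occurred in 16.3% of the 32851 windows of this length. The full DR4 element (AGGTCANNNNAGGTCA), which contains the half-site and was searched on both strands, occurred in 0.0152% of the windows and in 0 of those of the members. The hypoxia core ACGTG, found in 19.6% of all windows, was present in that of a second Vegfa start and absent from those of Vegfb and Apln. These matches describe the letters of the windows only.

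Vegfa rose after TH at every time in WT mice. It stood at 107, 119, 126 and 137 CPM in the PTU controls and at 172, 187, 190 and 198 CPM after 3 h, so that the groups did not overlap. The 6 h mice just overlapped the controls (137 to 197 CPM), and those at 12 h did not (156 to 197 CPM). At 24 h the values were 202, 219, 284 and 308 CPM, all above those of the controls and of 3 h. The log2 fold change was 0.61 ± 0.13 (SE) at 3 h (edgeR quasi-likelihood test, Benjamini-Hochberg adjusted p = 0.00558), 0.50 ± 0.13 at 6 h (0.00926), 0.51 ± 0.13 at 12 h (0.00707) and 1.05 ± 0.13 at 24 h (4.5e-06). These comparisons share their 4 control mice. The mean at 24 h was 2.07 times that of the controls, and 24 h exceeded 3 h by 0.44 ± 0.13 (adjusted p = 0.0219). The call at 6 h was lost without B15 (adjusted p = 0.0515), and that of 24 h against 3 h was lost without B8, B27 or B28 (0.0563, 0.0573 and 0.0587).

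Vegfb rose from 6 h on. The controls were at 38.2, 42.0, 43.2 and 54.4 CPM, and the mice at 24 h at 59.9, 63.6, 65.1 and 69.4 CPM, with no overlap. Its log2 fold changes were 0.29 ± 0.13 at 3 h (adjusted p = 0.169), 0.52 ± 0.13 at 6 h (0.00594), 0.37 ± 0.13 at 12 h (0.0373) and 0.54 ± 0.13 at 24 h (0.00302). At 12 h the groups overlapped, and the call was lost without B2, B3, B5, B20 or B21 (adjusted p from 0.0582 to 0.110). The other ligands of the family moved less or the other way. Vegfd, known for lymphatic growth, fell by 1.32 ± 0.27 on the log2 scale at 24 h (adjusted p = 0.000876), from 9.19 to 12.4 CPM in the controls to 3.49 to 5.62. Vegfc passed no test at any time, and Pgf was below the filter.

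Of the VEGF receptors, Flt1 was called higher at 12 h and 24 h. It was at 35.0, 37.1, 39.0 and 40.1 CPM in the controls and at 50.8, 53.9, 66.1 and 84.0 CPM at 24 h, without overlap. The log2 fold change was 0.35 ± 0.15 at 3 h and 0.34 ± 0.15 at 6 h (adjusted p = 0.156 and 0.114), 0.46 ± 0.15 at 12 h (0.0292) and 0.75 ± 0.15 at 24 h (0.000661). The 6 h mice (44.4 to 53.8 CPM) did not overlap the controls either. The difference between 24 h and 3 h did not pass with edgeR (0.41 ± 0.15, adjusted p = 0.0599) and was called with DESeq2. The 12 h call was lost without B2, B3, B20, B21 or B23 (adjusted p from 0.0519 to 0.0756). Kdr passed at 24 h alone, with 54.7 to 70.9 CPM in the controls and 73.1 to 89.6 CPM at 24 h (log2 fold change 0.34 ± 0.11, adjusted p = 0.0283), and not without B2, B4, B5, B24 or B28 (0.05002 to 0.104). Its values at 3, 6 and 12 h were 0.07, -0.06 and -0.14. Nrp1, a co-receptor of VEGF-A, rose at all 4 times, from 44.8 to 54.1 CPM in the controls to 77.8 to 102.5 CPM at 3 h (0.93 ± 0.14, adjusted p = 0.000211) and by 0.81 ± 0.14 at 24 h (0.000144). Its 12 h call was lost without B21 (adjusted p = 0.0540). Nrp2, another co-receptor, fell at 6 h (by 0.66 ± 0.19) and 12 h (by 0.79 ± 0.19, adjusted p = 0.0143 and 0.00353). Flt4, another receptor of the family, was at 2.10 to 3.45 CPM in the controls and 3.93 to 5.62 CPM at 24 h. It rose at 6 h (0.81 ± 0.22, adjusted p = 0.0108), 12 h (0.64 ± 0.23, 0.0415) and 24 h (0.925 ± 0.22, 0.00282), and not at 3 h (0.37 ± 0.23, 0.320). Of the 5 VEGF receptors and co-receptors, 4 rose and 0 fell at 24 h, where 17.4% of all genes rose and 15.4% fell, with a median log2 fold change of 0.755 against 0.0103 over all genes tested.

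The junction genes Cdh5 and Pecam1 passed no test for a rise over the controls. Cdh5 was at 125 to 155 CPM in the controls and at 91.4, 99.4, 103 and 120 CPM at 12 h, below every control. It fell by 0.45 ± 0.11 on the log2 scale at 12 h (adjusted p = 0.00398) and differed by 0.00, -0.15 and -0.12 at 3, 6 and 24 h (adjusted p = 0.989, 0.351 and 0.434). Pecam1 was highest at 3 h, with 97.7, 102, 114 and 126 CPM against 80.1 to 96.2 CPM in the controls (0.29 ± 0.11, adjusted p = 0.0967), and lowest at 24 h with 62.9, 71.5, 78.8 and 81.7 CPM. From 3 h to 24 h it fell by 0.58 ± 0.11 (adjusted p = 0.000744), while 24 h against the controls stood at the threshold (-0.28 ± 0.11, adjusted p = 0.0503 with edgeR and 0.0351 with DESeq2). Erythroid transcripts moved with the 3 h values: 2 of 5 (Hba-a1 and Hba-a2) were higher at 3 h than in controls, beside 5.59% of all genes. The summed level of the 5 was 199 to 1254 CPM at 3 h and 180 to 280 CPM in controls, and 4 of 5 were lower at 24 h than at 3 h. All 6 skeletal muscle markers were higher at 24 h (summed 244 to 1048 CPM) than at 3 h (3.15 to 221 CPM). Between 24 h and 3 h, 10.6% of all genes were higher and 10.6% lower. Against the controls, 0 of the 6 muscle markers were called at 3, 6, 12 or 24 h. The part of blood and muscle RNA in the difference between 24 h and 3 h was not tested.

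Tek passed no test after TH in WT mice. It was at 17.9 to 20.1 CPM in the controls and at 22.0 to 25.5 CPM at 3 h, without overlap, but the difference of 0.32 ± 0.13 had an adjusted p of 0.124, and the values at 6, 12 and 24 h were 0.01, 0.08 and 0.02. Angpt1, the activating ligand of Tek that mural and stromal cells make, fell early. It was at 14.7, 15.3, 17.1 and 18.3 CPM in the controls and at 4.99, 6.91, 10.2 and 10.5 CPM at 3 h (-1.01 ± 0.27, adjusted p = 0.0221), and returned to 7.51 to 21.8 CPM by 24 h, above the 3 h level by 1.03 ± 0.27 (0.00935). The 3 h call was lost without B3, B9 or B11 (adjusted p from 0.0527 to 0.0678). Tie1, a partner receptor of Tek, rose at 6 h (0.48 ± 0.17, adjusted p = 0.0414) and 24 h (0.69 ± 0.16, 0.00276). The 6 h call was lost without B2, B3, B5, B12, B15 or B17 (adjusted p from 0.0658 to 0.198).

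**Figure D1:**
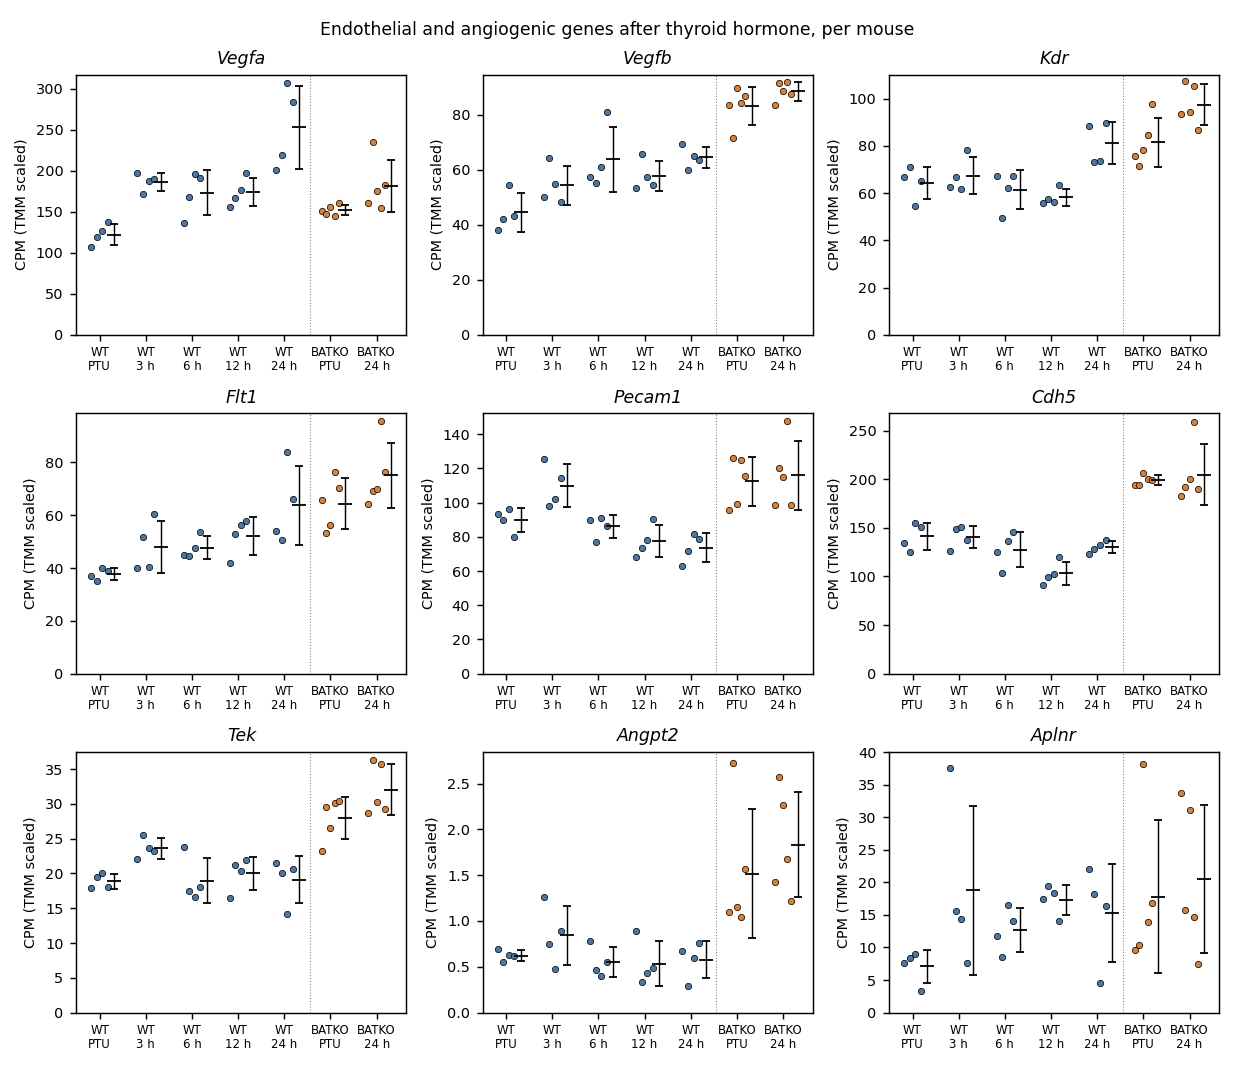
Level of the 9 genes in each mouse of the TH experiment, in CPM scaled with TMM factors (vertical axis, from 0), by group (horizontal axis); blue points are WT mice, orange points BATKO mice, the dotted line separates genotypes whose levels are not compared, and the black mark is the mean with its SD. Vegfa is above all PTU controls at 3 h (172 to 198 against 107 to 137 CPM) and highest at 24 h, while Cdh5 dips at 12 h and Tek stays near 20 CPM in WT mice.

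Both genes of the apelin pair rose. Aplnr was at 3.34, 7.67, 8.40 and 8.93 CPM in the controls, at 7.65, 14.4, 15.6 and 37.5 CPM at 3 h and at 14.1, 17.4, 18.3 and 19.4 CPM at 12 h. It rose by 1.39 ± 0.42 on the log2 scale at 3 h (adjusted p = 0.0413) and 1.28 ± 0.43 at 12 h (0.0303), while 6 h (0.84 ± 0.43, 0.158) and 24 h (1.09 ± 0.43, 0.0538) missed the threshold. The 3 h and control mice overlapped, and the 12 h mice did not. At 24 h, mouse B27 was at 4.53 CPM and the other 3 at 16.4 to 22.1, and without B27 the adjusted p was 0.00688. The 3 h call was lost without B2, B3, B5, B7 or B8 (adjusted p from 0.0586 to 0.213, with 0.79 in place of 1.39 without B7), and the 12 h call without B2, B5, B20 or B21 (0.0521 to 0.0861). In a fit of all 30 mice both were lost (0.0760 and 0.0613).

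Apln, the partner gene that encodes the ligand of Aplnr, rose from 0.317, 0.352, 0.457 and 0.613 CPM in the controls to 1.95, 2.06, 2.34 and 5.04 CPM at 3 h, 3.58 to 8.86 CPM at 6 h, 16.7 to 24.0 CPM at 12 h and 9.59, 15.0, 17.4 and 25.1 CPM at 24 h. No treated mouse overlapped the controls. The log2 fold changes were 2.69 ± 0.48 (adjusted p = 0.000976), 3.94 ± 0.43 (1.7e-06), 5.46 ± 0.41 (4.7e-09) and 5.25 ± 0.41 (5.5e-09). The call held in each fit that left out 1 mouse at each of the 4 times.

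The counts of members are set against all genes tested. At 3 h, 2 of the 8 members tested rose and 0 fell, where 5.59% of the 13001 genes tested rose and 3.69% fell. At 6 h, 2 rose and 0 fell (12.9% and 10.2% of all genes), at 12 h 4 rose and 1 fell (13.3% and 12.5%), and at 24 h 4 rose and 0 fell (17.4% and 15.4%). Between 24 h and 3 h, 1 was higher and 1 lower (10.6% and 10.6%). The median log2 fold change of the 8 members was 0.307, 0.173, 0.228 and 0.436 at 3, 6, 12 and 24 h, where that of all genes lay between -0.0275 and 0.0299.

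In BATKO mice, no member passed the test 24 h after TH (0 of 9 with edgeR and 0 with DESeq2, 2 at an unadjusted p under 0.05), nor did any of the 14178 genes tested (0% higher and 0% lower, with 298 higher and 375 lower at an unadjusted p under 0.05). Vegfa was at 145, 148, 151, 157 and 161 CPM in BATKO mice on PTU and at 155, 160, 175, 183 and 235 CPM after TH, with overlapping groups (0.26 ± 0.12, adjusted p = 0.963). The BATKO and WT libraries of this experiment stand apart as sets, with a correlation of log2 CPM of 0.619 to 0.689 between them against 0.949 to 0.988 within BATKO and 0.904 to 0.988 within WT. Genotype and library set cannot be told apart there, so levels are not compared between them. The responses within each are compared below, and for a difference in response genotype and library set cannot be told apart either.

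The Vegfa response differed between BATKO and WT mice. It was lower in BATKO mice by 0.79 ± 0.18 on the log2 scale (interaction term in a fit of all 30 mice, adjusted p = 0.00391), and stayed past the threshold in each of the 18 fits that left out 1 mouse (0.000750 to 0.0144). It was also past the threshold with TMM factors computed within each genotype, an alternative chosen after the data were seen. Vegfa was the only member of 9 called in this term by edgeR, where 5.12% of all genes were higher and 7.15% lower in BATKO. The difference was -0.44 ± 0.16 for Vegfb (adjusted p = 0.0591, and 0.0429 with DESeq2), -0.53 ± 0.21 for Flt1 (0.0871) and -0.88 ± 0.64 for Aplnr (0.400), where the test did not pass. For Kdr the BATKO response (0.26 ± 0.10) and the WT response (0.34) were close, with a difference of -0.08 and a 95% interval of -0.39 to 0.24. Among the partners, Apln differed by -3.44 ± 0.89 (adjusted p = 0.0103), with 0, 0.0734, 0.357, 0.371 and 1.09 CPM in BATKO mice on PTU and 0.435, 0.560, 1.15, 1.86 and 2.86 CPM after TH. The Apln values in BATKO mice on PTU rest on few counts, and without mouse 4 (1.09 CPM) the difference was -2.55 with an adjusted p of 0.132.

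**Figure D2:**
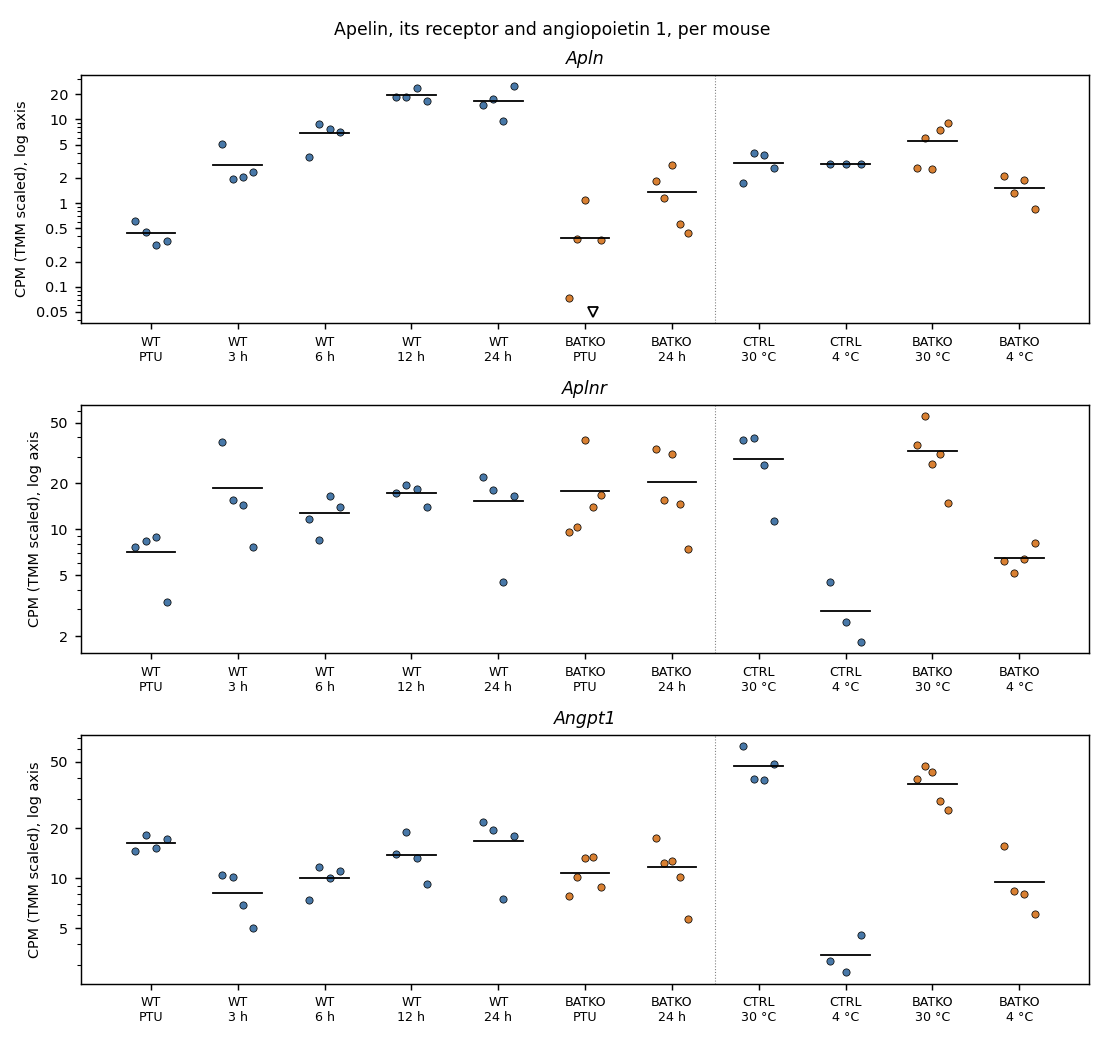
Level of Apln, Aplnr and Angpt1 in each mouse of the TH experiment (left of the dotted line) and the temperature experiment (right), in CPM on a log axis; points are mice (blue WT or CTRL, orange BATKO), bars are group means, and the open triangle at the bottom marks a mouse with 0 counts. Apln climbs in WT mice from under 0.7 CPM to between 9.59 and 25.1 CPM at 24 h, and Aplnr and Angpt1 are lower at 4 °C than at 30 °C in both genotypes.

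At 4 °C against 30 °C in CTRL mice, Kdr rose and Aplnr fell. Kdr was at 160, 180 and 215 CPM at 4 °C and at 76.7, 80.2, 88.4 and 90.7 CPM at 30 °C, which makes the mean 2.20 times as high (log2 fold change 1.14 ± 0.15, adjusted p = 1.2e-05). Aplnr was at 1.83, 2.46 and 4.51 CPM at 4 °C and at 11.4, 26.5, 38.3 and 39.8 CPM at 30 °C, on average 9.9 times as high at 30 °C (log2 fold change for 4 °C of -3.31 ± 0.49, adjusted p = 4.05e-05). Neither gene overlapped between the temperatures, and both calls held in the 7 fits that left out 1 mouse each. These were 1 rise and 1 fall among the 9 members, where 26.5% of 13267 genes rose and 22.6% fell. Vegfa (0.35 ± 0.20, adjusted p = 0.161), Vegfb (-0.09 ± 0.21, 0.750), Flt1 (0.13 ± 0.16, 0.531), Pecam1 (0.02 ± 0.17, 0.928) and Cdh5 (-0.27 ± 0.17, 0.208) did not pass. Tek was just outside (-0.50 ± 0.21, adjusted p = 0.0539), and was called lower with DESeq2 (0.0355).

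In BATKO mice at 4 °C, 4 of the 9 members fell and 0 rose, where 18.9% of all genes fell and 21.4% rose. Aplnr fell again, from 14.9, 26.98, 31.4, 35.45 and 55.3 CPM at 30 °C to 5.20, 6.17, 6.37 and 8.09 CPM at 4 °C (-2.34 ± 0.39, adjusted p = 0.000196). Vegfb fell from 155, 170, 210, 259 and 264 CPM to 96.1, 101, 122 and 134 CPM, with no overlap (-0.90 ± 0.19, adjusted p = 0.00112). Vegfa went from 235 to 327 CPM to 145, 159, 259 and 265 CPM (-0.51 ± 0.18, adjusted p = 0.0342) and Cdh5 from 202 to 294 CPM to 155 to 237 CPM (-0.41 ± 0.15, 0.0407), and both sets of values overlapped. The Vegfa call was lost without mouse 7, 8, 14, 15, 16 or 17 (adjusted p from 0.0502 to 0.123), and the Cdh5 call without those same 6 mice (0.0566 to 0.137). Kdr did not rise: it was at 85.5 to 113 CPM at 30 °C and at 87.3, 95.2, 114 and 116 CPM at 4 °C (0.09 ± 0.13, adjusted p = 0.601).

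Kdr differed between the genotypes in the cold. At 4 °C every BATKO mouse was below every CTRL mouse (-0.84 ± 0.15, adjusted p = 0.0123), and this call held without any 1 mouse. It was 1 fall among 9 members, where 0.957% of all genes were higher and 1.2% lower in BATKO at 4 °C. In a fit of these 7 mice alone the adjusted p was 0.0564. The cold response of Kdr was lower in BATKO by 1.05 ± 0.20 on the log2 scale (interaction, adjusted p = 0.0272), the only member called by edgeR where 0.317% of genes were higher and 0.807% lower. That call was lost without CTRL mouse 1, 19, 20 or 21 (adjusted p from 0.0508 to 0.0730). Leaving out the 5 mice of this experiment with Acta1, a skeletal muscle actin, above 1000 CPM gave a difference of -1.08 (adjusted p = 0.153), an alternative chosen after the data were seen. The same term was -0.86 ± 0.27 for Vegfa (adjusted p = 0.105, and 0.0398 with DESeq2), -0.82 ± 0.28 for Vegfb (0.127) and 0.97 ± 0.59 for Aplnr (0.401). At 30 °C no member passed between the genotypes (0 of 9 with edgeR or DESeq2, 1 at an unadjusted p under 0.05), where 0.00754% of genes were higher and 0% lower.

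**Figure D3:**
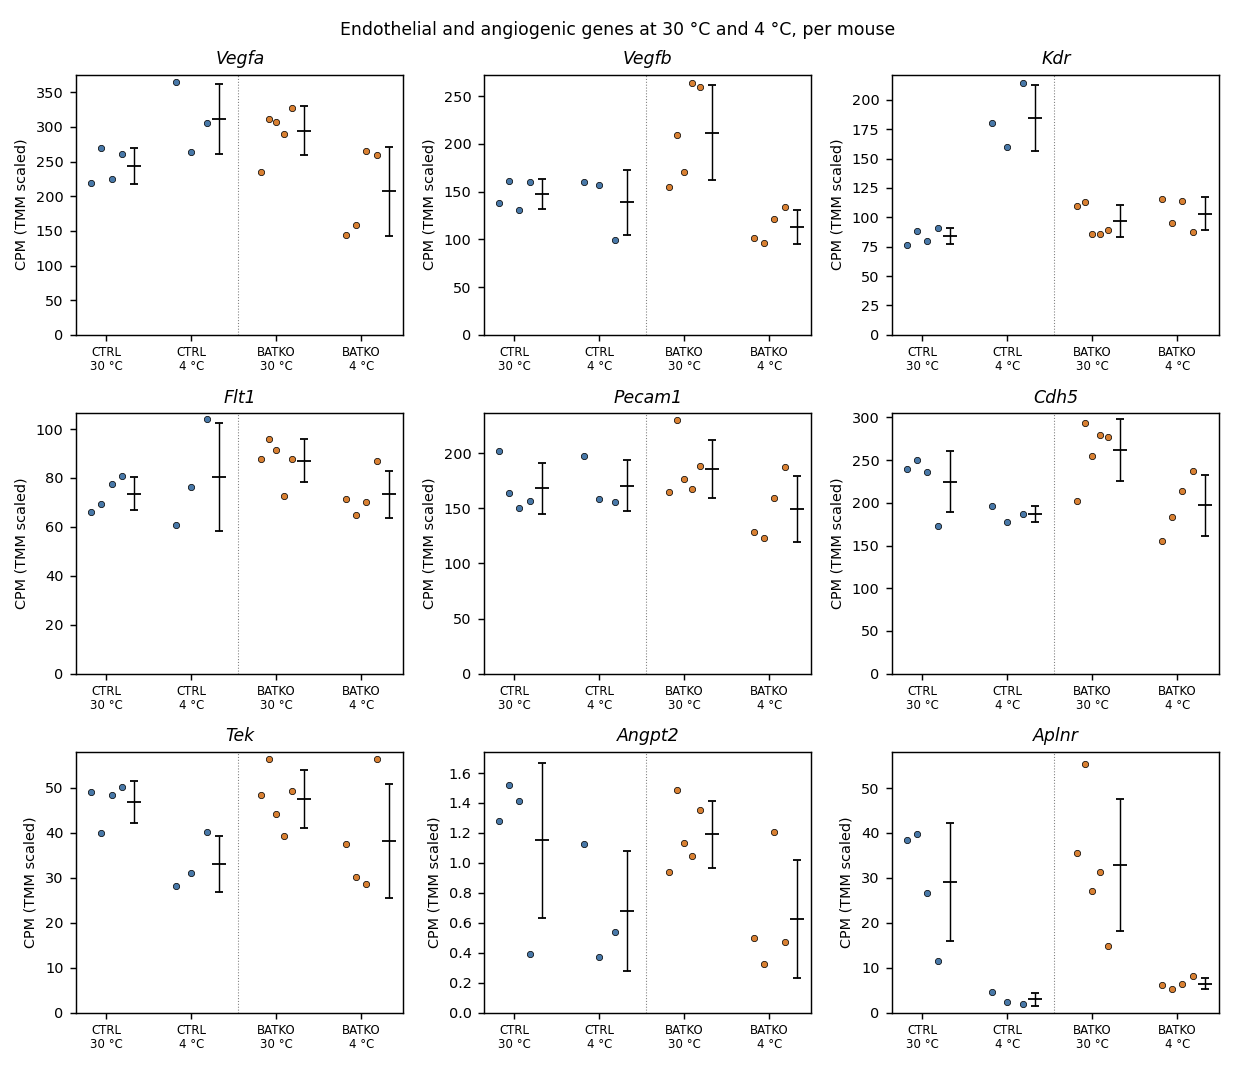
Level of the 9 genes in each mouse of the temperature experiment, in CPM scaled with TMM factors (vertical axis, from 0), by genotype and temperature (horizontal axis); points are mice (blue CTRL, orange BATKO) and the black mark is the mean with its SD. The 3 CTRL mice at 4 °C stand above all others for Kdr (160 to 215 CPM), and Aplnr is low at 4 °C in both genotypes.

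Angpt1 and Tie1 also fell in the cold. Angpt1 was at 38.8, 39.6, 48.3 and 62.2 CPM at 30 °C and at 2.70, 3.16 and 4.51 CPM at 4 °C in CTRL mice (-3.76 ± 0.34, adjusted p = 4.0e-07), and at 25.6 to 47.6 CPM and 6.11 to 15.5 CPM in BATKO mice (-1.96 ± 0.27, 3.2e-05). Tie1 fell by 0.79 ± 0.21 in CTRL (adjusted p = 0.00461) and 0.92 ± 0.18 in BATKO mice (0.000747). Pgf, a ligand of Flt1, fell by 2.87 ± 0.63 and 2.70 ± 0.54 (0.00131 and 0.000808), from between 0.870 and 4.20 CPM at 30 °C to at most 0.564 CPM at 4 °C. Apln was at 2.90, 2.93 and 2.95 CPM at 4 °C and 1.76 to 3.92 CPM at 30 °C in CTRL mice (-0.04 ± 0.44, adjusted p = 0.944) and fell in BATKO mice by 1.85 ± 0.40 (0.00167). Nrp2 fell in CTRL mice (-0.41 ± 0.14, adjusted p = 0.0236) and was not called in BATKO mice (-0.20 ± 0.12, 0.200). Flt4 fell in BATKO mice (-0.76 ± 0.19, 0.00507) and was not called in CTRL mice (0.25 ± 0.22, 0.344). At 4 °C Angpt1 was higher in BATKO than in CTRL mice (1.45 ± 0.33, 0.0338).

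HFD for 3.5 days gave no call for any member with edgeR. None of the 9 passed that test for HFD against chow in CTRL mice (0 with edgeR, 1 with DESeq2, 3 at an unadjusted p under 0.05), where 1.89% of 12932 genes rose and 2.04% fell, or in BATKO mice (0 with edgeR or DESeq2, 2 at an unadjusted p under 0.05), where 0.0309% rose and 0.0387% fell. Aplnr came closest, at 7.46, 7.48, 16.2 and 20.6 CPM on chow and 16.2, 21.2, 26.4 and 31.6 CPM on HFD in CTRL mice (0.88 ± 0.30, adjusted p = 0.110, and 0.0435 with DESeq2). In BATKO mice it was at 8.47 and 8.76 CPM on chow and 17.1, 18.1 and 26.9 CPM on HFD, without overlap (1.27 ± 0.42, adjusted p = 0.198). Vegfa was at 209 to 292 CPM on HFD and 233 to 305 CPM on chow in CTRL mice (-0.12, 95% interval -0.41 to 0.16), and Kdr at 104 to 152 and 125 to 151 CPM (-0.10, -0.38 to 0.18). Between BATKO and CTRL mice, 0 of 9 members passed on HFD (1 at an unadjusted p under 0.05), 0 on chow (1, Flt1, with 103 and 106 CPM in BATKO mice and 137 to 155 CPM in CTRL mice, adjusted p = 0.365) and 0 for the difference in the HFD response (0 at an unadjusted p under 0.05). DESeq2 also called 0 members in these 3 comparisons, and edgeR called 0% of all genes in each direction. With 2 BATKO mice on chow, these comparisons have little precision. Angpt1 was at 71.1 and 101 CPM on chow and 17.4 to 37.2 CPM on HFD in BATKO mice (-1.60 ± 0.28, adjusted p = 0.0546, and 2.22e-05 with DESeq2).

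**Figure D4:**
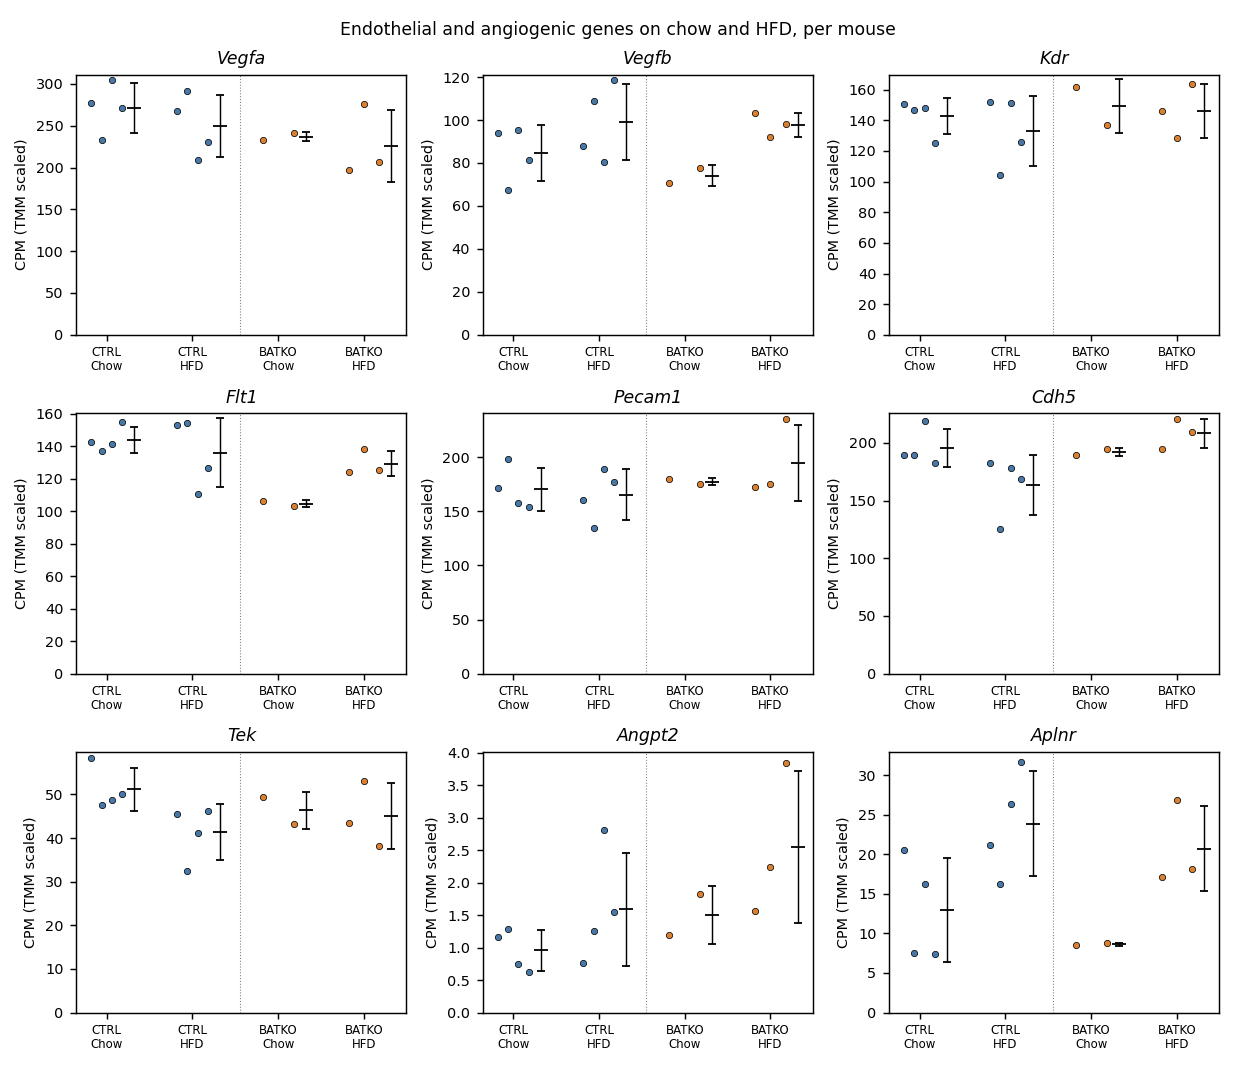
Level of the 9 genes in each mouse of the diet experiment, in CPM scaled with TMM factors (vertical axis, from 0), by genotype and diet (horizontal axis); points are mice (blue CTRL, orange BATKO) and the black mark is the mean with its SD. Groups overlap for most genes, and Aplnr tends to be higher on HFD, at 16.2 to 31.6 against 7.46 to 20.6 CPM in CTRL mice.

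Across the stimuli the members did not move as a block. Vegfa rose with TH in WT mice, missed the threshold in the cold in CTRL mice and fell in the cold in BATKO mice. Kdr rose in the cold in CTRL mice by 1.14 and with TH at 24 h by 0.34. Aplnr rose with TH at 3 h and 12 h and fell in the cold in both genotypes, and Pecam1, Tek and Angpt2 were called by edgeR in no comparison with PTU, 30 °C or chow controls. Over the 59 mice, after the mean of each group was subtracted, the correlation of log2 CPM was 0.53 between Pecam1 and Cdh5, 0.379 between Vegfa and Vegfb and -0.118 between Vegfa and Kdr. The genes most like Vegfa in these deviations, of 8475 compared, were Npr1 (r = 0.685), Mapk8ip3 (0.617), Ninj1 (0.616), Kmt2b (0.616) and 0610030E20Rik (0.615). Those most like Cdh5 were Notch3 (0.712), Ece1 (0.702), Cd300lg (0.698), Tspan9 (0.697) and Coro2b (0.69), and those most like Aplnr were Myct1 (0.724), Pcdh12 (0.722), Tbc1d2b (0.716), Pwwp2b (0.668) and Rsad2 (0.658). Such correlations share library, depth and dissection and are descriptions.

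**Figure D5:**
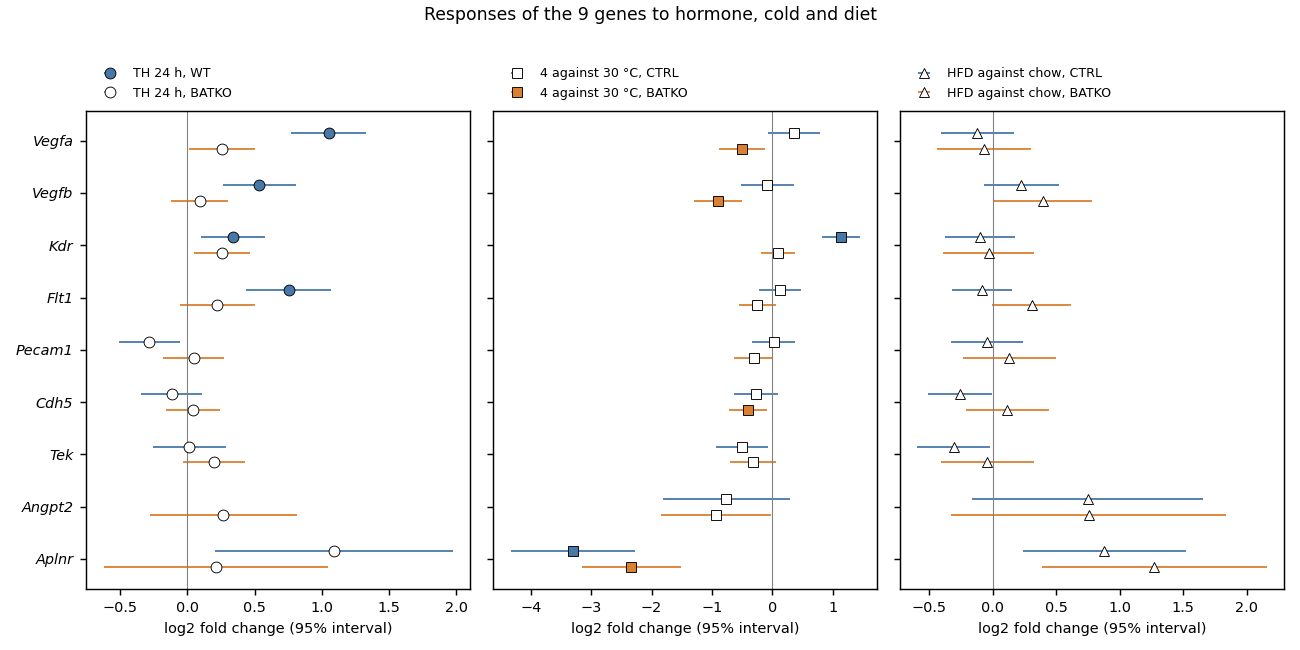
Log2 fold change (horizontal axis) with its 95% interval for the 9 genes (vertical axis) 24 h after TH, at 4 °C against 30 °C and on HFD against chow; blue marks are WT or CTRL mice, orange marks BATKO mice, and filled marks are past an adjusted p of 0.05. Vegfa, Vegfb, Kdr and Flt1 are filled for TH in WT mice, Aplnr is filled for cold in both genotypes, and no mark is filled for diet; Angpt2 was not tested in the WT fit.

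Other genes of the vessel wall gave a mixed picture. Of 24 endothelial identity genes tested, 3 rose and 0 fell 3 h after TH in WT mice, beside 5.59% and 3.69% of all genes. Among them were Eng, a TGF-β co-receptor of endothelium (0.92 ± 0.21, adjusted p = 0.00748), and Mmrn2, an endothelial matrix protein (0.68 ± 0.15, 0.00718). At 6 h, 3 rose and 3 fell (12.9% and 10.2% of all genes), with Eng higher by 1.03 ± 0.21 (0.00132) and Mmrn2 by 0.55. At 12 h, 3 rose and 2 fell (13.3% and 12.5%), and the rises were Calcrl (0.86), Mmrn2 (0.64) and Ramp2 (0.58). Of the same genes, 3 rose and 2 fell 24 h after TH in WT mice, no larger a share than among all genes (17.4% and 15.4%), while their median log2 fold change was 0.278 against 0.0103 over all genes. Those that rose included Calcrl (0.77) and Mmrn2 (0.47), and those that fell were Clec14a (-1.01), a marker of sprouting endothelium, and Sox17 (-0.52), an arterial transcription factor. Cldn5, the tight junction claudin of endothelium, fell by 1.56 at 6 h and 2.65 at 12 h (adjusted p = 0.000334 and 1.9e-06). In the cold, 6 rose and 4 fell in CTRL mice, beside 26.5% and 22.6% of all genes. Among those with a mean count above 50, the largest rises were Sox18 (1.78), Eng (1.71) and Emcn (0.84) and the largest falls Cldn5 (-1.86), Cd34 (-1.33) and Fli1 (-1.14). In BATKO mice 2 rose and 12 fell, beside 21.4% and 18.9% of all genes, with a median log2 fold change of -0.545 against -0.0207 over all genes, and the difference between the genotypes was called for 0 of 24 genes with edgeR. The summed level of the 25 listed genes was 854 to 1003 CPM at 4 °C and 705 to 825 CPM at 30 °C in CTRL mice, and 655 to 859 and 733 to 1156 CPM in BATKO mice. On HFD, 3 of the 24 rose and 0 fell in CTRL mice, beside 1.89% and 2.04% of all genes. These were Sox18 (1.81 ± 0.25, adjusted p = 0.00209), Mmrn2 (0.59, 0.0187) and Icam2 (0.44, 0.0279). In BATKO mice on HFD 0 of the 24 were called.

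Of 9 Notch and tip or stalk cell genes tested, 5 rose and 0 fell 24 h after TH, where 17.4% of all genes rose and 15.4% fell. Those that rose were Dll4 (1.66), Notch4 (1.12), Hey1 (0.99), Notch1 (0.69) and Unc5b. Dll4 and Unc5b had low counts in the fit of the WT mice, with a mean count of 50 or less. For 3 of the 5 genes that rose (Dll4, Notch4 and Unc5b) the response at 24 h was lower in BATKO. Among all genes, 7.15% were lower and 5.12% higher in that term. In the cold, 4 of the 9 rose and 1 fell in CTRL mice and 0 rose and 3 fell in BATKO mice, beside 26.5% and 22.6% of all genes in CTRL and 21.4% and 18.9% in BATKO mice. Hey1, a Notch target, also rose in CTRL mice in the cold (2.01 ± 0.22, adjusted p = 2.5e-06), and its cold response was lower in BATKO by 1.53 ± 0.30 (0.0289). Dll4, a Notch ligand of tip cells, rose at 12 h (0.74) and 24 h after TH, with a response at 24 h lower by 1.27 in BATKO (0.0240), and fell in the cold in CTRL (-0.95) and BATKO mice (-1.62). Of 9 other angiogenic factors and inhibitors tested, 1 rose and 1 fell 3 h after TH (5.59% and 3.69% of all genes). At 6 h 2 rose and 3 fell (12.9% and 10.2%), at 12 h 2 and 2 (13.3% and 12.5%) and at 24 h 1 and 0 (17.4% and 15.4%). Of 10 tested in the cold, 2 rose and 3 fell in CTRL mice and 0 rose and 4 fell in BATKO mice, beside the shares of all genes given above. Fgf1, which lies wholly inside Arhgap26 on the opposite strand, rose by 3.24 ± 0.22 at 24 h after TH (adjusted p = 1.1e-09) and by 1.44 ± 0.28 in CTRL mice in the cold (0.000467), with a cold response lower by 1.88 ± 0.38 in BATKO (0.0316). Thbs1, an inhibitor of vessel growth, fell at 6 h and 12 h after TH (-2.34 and -2.65) and in the cold in both genotypes (-3.44 and -1.91). Angptl4 fell at 6 h and 12 h (-0.86 and -1.66) and in the cold in both genotypes (-2.06 and -2.10), and Fgf2, a fibroblast growth factor, fell at 3 h and 6 h after TH (-0.68 and -0.60). Cxcl12 went the other way and rose at 3, 6 and 12 h (0.80, 0.71 and 0.32, adjusted p = 3.7e-05, 4.5e-05 and 0.0279). It was lower at 24 h than at 3 h (-0.83). Of 6 hypoxia genes, 2 rose and 1 fell 24 h after TH, where 17.4% of all genes rose and 15.4% fell. Epas1, which encodes HIF-2α, rose at all 4 times after TH, by 0.47, 1.06, 1.49 and 1.78, and Egln3, a hypoxia-induced prolyl hydroxylase, fell at all 4 times, by 0.88, 1.08, 1.23 and 1.35. Egln1, the main oxygen-sensing prolyl hydroxylase, rose at 6, 12 and 24 h by 0.57, 0.92 and 0.79 (adjusted p = 0.0188, 0.000377 and 0.00117), and its response at 24 h was lower in BATKO by 0.77 (0.0257). In the cold, 4 of these 6 rose and 1 fell in each genotype, beside 26.5% and 22.6% of all genes in CTRL and 21.4% and 18.9% in BATKO mice. On HFD in CTRL mice, 1 gene rose and 0 fell in each of these lists, beside 1.89% and 2.04% of all genes. They were Hey1 (1.12, adjusted p = 0.0258), Fgf1 (1.02, 0.0245) and Egln1 (0.50, 0.0128).

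Markers of other cells were counted after TH in WT mice, where 17.4% of all genes rose and 15.4% fell at 24 h. Of 8 brown adipocyte markers, 3 rose and 3 fell at 24 h, where Adipoq fell by 2.13, Plin1 by 1.10 and Cidea by 0.85 and where Dio2 (1.38), Ucp1 (0.93) and Cox7a1 (0.82) rose. Their summed level was 9416 to 17150 CPM at 24 h and 8473 to 10180 CPM in the controls. Of 8 mural cell markers, Des alone was called against the controls, higher at all 4 times (0.62, 1.21, 0.75 and 1.24), with a response at 24 h lower by 1.38 ± 0.31 in BATKO (adjusted p = 0.0040). The mural sum, which includes Des, was 317 to 351 CPM at 24 h and 266 to 302 CPM in the controls. The counts of macrophage and fibroblast markers were close to these shares, and their sums overlapped the controls. Of 6 macrophage markers, 1 rose at 24 h (Cd68, by 0.90), with a sum of 44.5 to 73.0 against 35.3 to 58.8 CPM, and of 6 fibroblast markers 1 fell (Lum, by 0.39), with a sum of 256.5 to 318 against 242 to 373 CPM. Their part in the TH responses of the members was not tested.

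Markers of other cells were counted in the cold beside the members. Among all genes, 26.5% rose and 22.6% fell in CTRL mice and 21.4% rose and 18.9% fell in BATKO mice. Of 5 erythroid markers, 3 rose in each genotype, with a summed level of 766 to 1711 CPM at 4 °C and 177 to 333 CPM at 30 °C in CTRL mice and 771 to 1111 and 182 to 494 CPM in BATKO mice. Of 8 mural cell markers, 3 rose and 2 fell in CTRL mice and 1 rose and 1 fell in BATKO mice. Of 6 fibroblast markers, 3 fell in CTRL and 1 in BATKO mice. Of 6 macrophage markers, 1 fell in CTRL and 1 rose in BATKO mice, and of 3 lymphatic markers tested 1 rose and 1 fell in BATKO mice. The 6 skeletal muscle markers were not called in the cold, but their sum ran from 0.639 to 4357 CPM in CTRL mice at 30 °C and from 0.870 to 7710 CPM in BATKO mice at 30 °C. Of 8 brown adipocyte markers, 7 rose and 1 fell in CTRL mice (Adipoq, by 1.07, adjusted p = 5.42e-05) and 7 rose and 0 fell in BATKO mice, with Ucp1 higher by 4.40 in CTRL and 3.43 in BATKO mice, and their sum was 17220 to 20780 against 2123 to 3954 CPM in CTRL mice. On HFD in CTRL mice, 3 of 6 fibroblast markers rose (Col1a1, Dpt and Col1a2) and 0 fell, beside 1.89% and 2.04% of all genes. Of 8 brown adipocyte markers, 2 rose there (Prdm16 and Cox7a1) and 0 fell. Of the mural, macrophage, lymphatic, muscle and erythroid markers 0 were called there. In BATKO mice on HFD, 1 of 8 brown adipocyte markers rose (Prdm16), beside 0.0309% of all genes. The part of these cell types in the changes of the members was not tested.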

How the data were processed

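BAT RNA of 59 mice was extracted with Trizol and sequenced as 1 library per mouse. Per the study's methods, the authors mapped reads to GRCm38 (Bowtie2 2.3.2.2 and mm10 in the labels) and used htseqcount. They deposited unnormalized counts per gene symbol in 3 tables. Of these symbols, 14 were not found in the GENCODE annotation. Each column was assigned to a mouse by its label, and 0 were left over.

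The main test was edgeR 4.0.16 (R 4.3.3) with TMM factors. A gene entered if its normalized counts averaged over 10, and p-values from the quasi-likelihood fit were adjusted by Benjamini-Hochberg over all genes (threshold 0.05). WT times were fitted over 20 mice, BATKO responses and interactions over 30, and each other experiment over all its mice. Standard errors came from the F statistic. Alternatives were DESeq2 1.42.0, RLE factors, mitochondrial genes left out, no filter, a mean count over 50, subsets of mice, and each mouse left out. The scripts were tested on simulated data. Among 91 pairs of mice within groups, chi-square per degree of freedom was at least 6.81, so none was counted as a copy.

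The members and lists were chosen with earlier results of these data known. Every member is described, with its ligands and receptors. From each other list, at most 3 genes per direction were named, by size of change among called genes with a mean count above 50. Unc5b, and Dll4 at the WT times, were named in addition, with a mean count of 50 or less. The 5 genes with the highest correlation were named for Vegfa, Cdh5 and Aplnr.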

Additional observations from a re-analysis of the deposited data

Results flagged for a closer look

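In 4 of 108 groups of members tested, 1 mouse lay far from the rest, where chance gives about 5.4. The gap to the nearest mouse, as a share of the range of the group, was 0.849 for Kdr in CTRL mouse 4 on chow (125 CPM, the others 147 to 151), 0.782 for Cdh5 in BATKO mouse 10 at 24 h after TH (259 CPM, the others 183 to 200), 0.834 for Tek in CTRL mouse 20 at 30 °C (40.0 CPM, the others 48.5 to 50.2) and 0.751 for Aplnr in BATKO mouse 4 on PTU (38.3 CPM, the others 9.68 to 16.8).

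By interaction terms, 6 responses of the members and of their ligand and receptor partners differed between BATKO mice and WT or CTRL mice. For the TH terms, genotype and library set cannot be told apart. Among all genes, 5.12% were higher and 7.15% lower in the TH response of BATKO, and 0.317% and 0.807% in the cold response. Among genes of the other lists, the TH response was lower in BATKO for Dll4, Notch4, Unc5b, Fgf1, Epas1, Egln1 and Des and higher for Egln3, Clec14a, Sox17, Adipoq, Cidea and Plin1, and the cold response was lower for Hey1, Fgf1 and Egln1. The response to TH at 24 h differed on the log2 scale by -0.79 for Vegfa, -0.55 for Nrp1 (edgeR adjusted p = 0.0460), -3.44 for Apln and 1.25 for Vegfd (0.0177). The response to cold differed by -1.05 for Kdr and by 1.80 for Angpt1 (0.0435). The Nrp1 call was lost in 11 of 18 fits that left out 1 mouse (WT B2, B3, B5, B27 or B28, BATKO 2, 4, 17, 8, 10 or 15, adjusted p from 0.0522 to 0.129), and that of Angpt1 in 11 of 16 (BATKO 7, 8, 14, 16 or 17, CTRL 1, 2, 19, 20, 21 or 22, 0.0510 to 0.139).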

How the results depend on the processing

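Of 24 called changes of members, refitted 377 times, 321 refits kept the call, 56 lost it and 0 reversed the direction. Of 124 changes not called, 38 of 1954 refits passed the threshold and 77 reversed the direction. The number of members called moved by more than 1.5 times in the cases that follow, and the cause was not tested. Among moves of 1.5 times or less, DESeq2 gave 5 in place of 4 at 24 h after TH, 3 in place of 2 for 24 h against 3 h and 3 in place of 2 for cold in CTRL mice. A fit of all 30 mice gave 1 in place of 2 at 3 h after TH. Fits of only the groups compared gave 1 at 3 h, 4 in place of 2 at 6 h, 1 in place of 2 for 24 h against 3 h, 2 in place of 4 for cold in BATKO mice and 0 in place of 1 for BATKO against CTRL at 4 °C. DESeq2 gave 2 in place of 1 for the genotype difference in the TH response, 2 in place of 1 for that in the cold response, and 1 in place of 0 for HFD in CTRL mice. A mean count above 50 gave 2 for the difference in the TH response. No filter gave 1 in place of 0 for HFD in each genotype, and ended the calls of Kdr at 24 h (adjusted p = 0.0598) and Vegfb at 12 h (0.0534). Leaving out mice with Acta1 above 1000 CPM, chosen after the data were seen, gave 0 in place of 1 for the genotype difference in the cold response.

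Leaving out 1 mouse at a time gave 1 to 2 members at 3 h, 1 to 2 at 6 h, 2 to 5 at 12 h, 3 to 6 at 24 h, 1 to 4 for 24 h against 3 h, 1 to 2 for the difference in the TH response, 2 to 6 for cold in BATKO mice, 0 to 2 for the difference in the cold response and 0 to 1 for HFD in CTRL mice. No paired analysis was possible because the groups compared share no mouse, and recurring numbers stand for different mice. With 2 to 5 mice per group, small differences are not detectable.

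Counts over all genes also moved. For 24 h against 3 h after TH in WT mice, a fit of only the groups compared gave 1156 higher and 806 lower, in place of 1384 and 1378. For BATKO against CTRL at 4 °C, 286 genes were called by edgeR, against 211 higher and 438 lower by DESeq2, 71 and 118 without the mice high in Acta1, and 16 and 45 in a fit of those groups alone. For the difference in the cold response, DESeq2 gave 191 higher and 461 lower and the fit without mice high in Acta1 gave 6 and 11, which left 1941 higher and 1553 lower for cold in BATKO mice. At 30 °C, DESeq2 gave 6 and 2. For HFD in CTRL mice, DESeq2 gave 448 and 425, no filter 646 and 634, and the groups alone 133 and 188. For HFD in BATKO mice, these were 114 and 112, 145 and 191, and 28 and 38, with 20 and 14 without mice high in Acta1. Between genotypes on chow they were 32 and 1, 238 and 52, and 110 and 4. On HFD, DESeq2 gave 5 and 4 and no filter 32 and 27, and for the difference in the HFD response no filter gave 55 and 161.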
